A study of Mus musculus with 4 samples.

Results

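The small RNA rows of this expression table are 62 of its 24043 rows. They were selected on name and level, as the rows whose name begins with Snord, Snora or Mir and a digit and whose FPKM (fragments mapped, scaled by transcript length and library total) was 1 or more in at least 2 of the 4 libraries. They comprise 36 microRNA rows, 15 Snora rows, 9 Snord rows and 2 rows, Mir22hg and Mir17hg, that share the naming pattern but are long noncoding host transcripts of microRNAs. In all, 1167 rows fit the naming pattern and 120 of these were above 0 in any library.

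RNA was sequenced from sorted YFP+ mammary tumor cells of female MMTV-PyMT mice, in which a mammary promoter drives a viral oncogene. All mice carried the R26Y reporter, which yields YFP after Cre recombination, and had received the Cre-expressing adenovirus Ad-K8-Cre, driven by the Krt8 promoter, in the mammary ducts 2 to 3 months earlier. The 2 libraries labelled knockout came from the experimental arm, mice with conditional Lsd1 alleles (Lsd1L/L), and the 2 wild-type libraries from mice with intact alleles (Lsd1+/+). Both samples titled knockout carry Lsd1+/+ in their tissue label, against their genotype label, and so are called here the libraries labelled knockout. Kdm1a, the gene that encodes Lsd1, was at 20.2 and 22.8 FPKM in libraries labelled knockout and at 52.5 and 22.9 FPKM in wild-type (log2 difference -0.67, limma adjusted p = 0.34). Whether each library is a separate animal is not stated in the labels. The p-values therefore describe the spread among these 4 libraries, which may be technical.

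Small nucleolar RNAs (snoRNAs) guide chemical modification of other RNAs. Box C/D snoRNAs, named Snord, direct methylation of the ribose in ribosomal RNA and other targets, and box H/ACA snoRNAs, named Snora, direct conversion of uridine to pseudouridine. In mammals most snoRNAs are cut out of the introns of host genes, many of which encode ribosomal proteins or translation factors. MicroRNAs are cut from hairpins in longer transcripts by Drosha and Dicer and then guide Argonaute proteins to messenger RNAs through their seed. The libraries were made with a SMARTer low-input mRNA kit, which primes cDNA on poly(A) tails and selects no small RNA. A value in these rows is therefore the number of reads assigned to an annotated snoRNA or hairpin, and it does not measure the mature microRNA or the processed snoRNA.

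The sequences of 5 of the 6 snoRNAs whose rows were called different between the groups are shown here, because most values reported for snoRNAs come from these rows. The sequences are GENCODE M21 transcripts on GRCm38, written as DNA. They are longer than the RefSeq lengths used for read steps further on, for example 134 against 117 nucleotides for Snora64 and 81 against 77 for Snord96a. Capitals mark, in Snord96a box C (TGATGA) and box D (CTGA), and in Snora rows the ACA box near the end.
Snord96a: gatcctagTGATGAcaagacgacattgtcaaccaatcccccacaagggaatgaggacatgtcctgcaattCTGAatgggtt
Snora65: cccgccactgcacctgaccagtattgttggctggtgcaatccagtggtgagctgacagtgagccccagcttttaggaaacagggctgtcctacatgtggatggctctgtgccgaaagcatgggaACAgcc
Snora75: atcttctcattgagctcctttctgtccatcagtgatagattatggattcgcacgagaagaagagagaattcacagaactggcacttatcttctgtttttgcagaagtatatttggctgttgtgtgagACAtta
Snora64: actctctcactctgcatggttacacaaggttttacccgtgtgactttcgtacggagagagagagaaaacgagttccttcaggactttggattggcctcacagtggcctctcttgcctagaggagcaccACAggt
Snora28: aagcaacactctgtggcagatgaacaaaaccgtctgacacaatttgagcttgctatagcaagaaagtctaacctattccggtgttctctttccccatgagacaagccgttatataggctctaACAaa

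The boxes searched were TGATGA anywhere in the transcript, CTGA within the last 20 bases and ACA within the last 20 bases, on the transcribed strand. TGATGA was present in 75.5% of 98 annotated Snord transcripts and in 0% of 42 Snora transcripts. CTGA near the end was present in 98.0% of Snord and 11.9% of Snora transcripts, and ACA near the end in 95.2% of Snora and 22.4% of Snord transcripts. The ACA box of the 4 Snora transcripts begins 5 or 6 bases from the end. Snord35b, the called snoRNA whose sequence is not shown, held no TGATGA, and its last CTGA began 13 bases from the end.

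The mature microRNAs of the called microRNA rows other than Mir3535, and of Mir703, the second highest of the microRNA rows, are given from RefSeq (GRCm38.p6), with the seed, bases 2 to 8, in capitals.
mmu-miR-6236: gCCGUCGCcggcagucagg
mmu-miR-703: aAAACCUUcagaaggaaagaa
mmu-miR-7058-5p: uAGAGGGGaggugaccguggaagu
mmu-miR-7058-3p: cUCGUUCCuuccuuucuuccag
mmu-miR-142b: uCCAUAAAguaggaaacacu
mmu-miR-6385: gCAAGGAUgacagagaggaag
mmu-miR-8094: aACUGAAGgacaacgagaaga
mmu-miR-223-5p: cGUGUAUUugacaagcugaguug
mmu-miR-223-3p: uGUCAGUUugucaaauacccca

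By symbol, 28 of the 36 microRNA rows matched a RefSeq microRNA entry, either hairpin or mature. Each of the seeds shown belonged to 1 of 1679 mature mouse microRNA names.

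Most of these rows rested on very few reads. After multiplication by the relative depth of each library, the values of short rows lay on whole multiples of a step that depended on the row's length. The step was taken as the value of 1 read, and a value divided by it is called here a read equivalent. It was placed from 42 of 53 other short rows of the table and came to 416 FPKM for a row of 77 nucleotides (Snord96a), 15.8 FPKM at 117 nucleotides (Snora64) and 0.989 FPKM at 221 nucleotides (Snord17). The longest of the rows that placed it had 198 nucleotides, so the step of Snord17 was extended beyond them. A value such as the 416 FPKM of Snord96a can thus be a single read in the shortest rows.

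**Figure D1:**
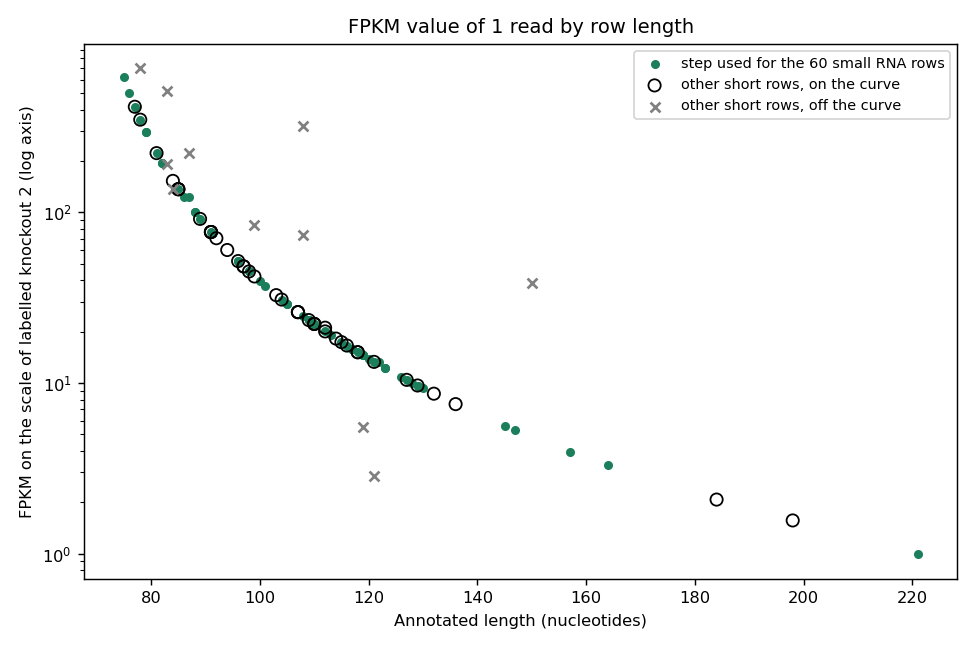
The FPKM value of 1 read (log axis, on the scale of the second library labelled knockout) against the annotated length of the row in nucleotides. Open circles are the 42 short rows that place the curve, crosses the other short rows and green points the steps of the 60 small RNA rows, which range between 619 FPKM for the shortest row and 0.989 FPKM for the longest. Both of these lie beyond the open circles, where the steps were extended.

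Of the 60 snoRNA and microRNA rows, 38 stood at whole numbers of reads under 20 in every library, within a tolerance of 0.5%, 4 were above 20 in at least 1 library, and 18 did not come out whole. At lengths where no other short row placed the step, it could shift between the steps of rows 1 base longer and shorter. Such a shift makes whole numbers easier to reach. With a tolerance of 0.1 read, the highest library held at most 1 read in 17 rows, at most 2 in 25 and at most 5 in 40. Over the 4 libraries together, 28 rows held 5 reads or fewer, with the same tolerance. A row was listed at 0 in at least 1 library in 32 of the 62 cases. Of 58 further rows of the same naming pattern above 0, 47 were at 1 FPKM or more in 1 library, the highest at 699 FPKM.

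At the threshold of the rule, Snord17 had 0 and 1.05 FPKM in libraries labelled knockout and 1.02 and 1.23 FPKM in wild-type. Just outside stood Mir143hg, at 0.145 FPKM and 0 in libraries labelled knockout and 0.164 and 0.238 FPKM in wild-type. The filter was passed by 38 rows through 3 or 4 libraries, by 15 through 1 library of each group alone, by 8 through both libraries labelled knockout alone and by 1, Mir223, through both wild-type libraries alone. Such rows had to differ between the groups or to overlap by the way they were chosen, so counts over them are descriptions.

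The rows took 3.66% and 3.36% of all FPKM in libraries labelled knockout and 3.31% and 3.27% in wild-type. As read equivalents their sums were 469 and 504 in libraries labelled knockout and 699 and 671 in wild-type. Mir6236 alone was 28.3% and 29.4% of that sum in libraries labelled knockout and 68.1% and 73.1% in wild-type. The other microRNA rows summed to 229 and 219 read equivalents in libraries labelled knockout and 167 and 139 in wild-type. The Snora rows summed to 90.9 and 127 read equivalents in libraries labelled knockout and 47.0 and 35.0 in wild-type, and the Snord rows to 16.3 and 10.1 in libraries labelled knockout and 9.1 and 6.0 in wild-type. The sums run over rows chosen by their own values, and those of the Snord rows in libraries labelled knockout include 5 and 3 reads of Snord35b and 1 and 1 of Snord96a, rows that passed the filter through these libraries alone.

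**Figure D2:**
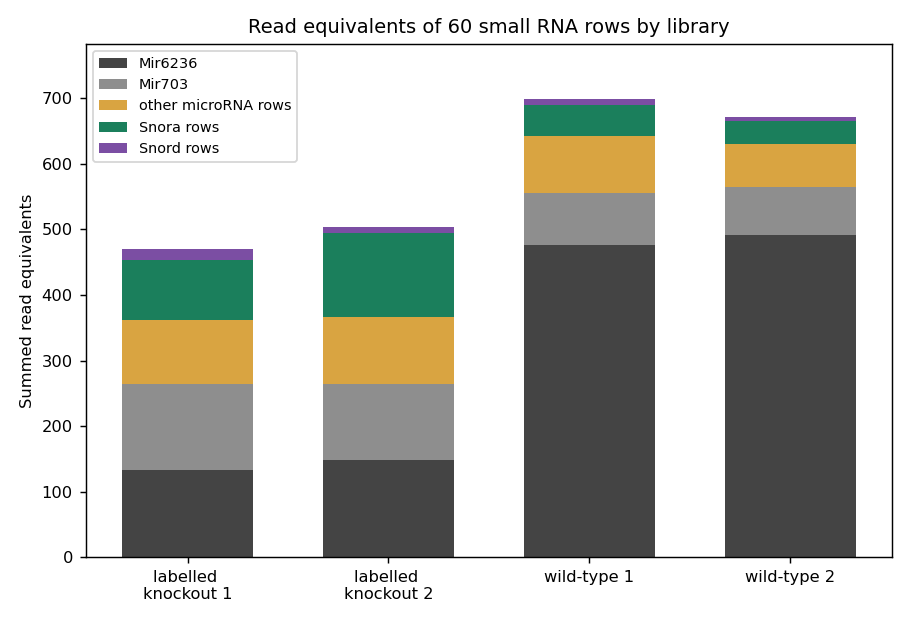
Summed read equivalents (vertical axis) of the 60 snoRNA and microRNA rows in each library, stacked by class. Mir6236 had 133 and 148 read equivalents in libraries labelled knockout and 476 and 491 in wild-type, where it fills most of the bar, and the Snora rows are deeper in libraries labelled knockout.

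Across the whole table, limma on log2(FPKM + 1) with Benjamini-Hochberg adjustment at 0.05 called 16.5% of 11138 rows, 9.51% higher and 6.99% lower in libraries labelled knockout. Among the 62 rows chosen here 11 were called higher, 2 lower and 49 neither by the same test, with a median log2 difference of 0.51 against 0.08 over all rows tested. The groups did not overlap in 27 rows that were higher in libraries labelled knockout and 6 that were lower. Of all rows tested, 39.3% and 32.1% did not overlap in these directions. Because the same values chose the rows, these counts support nothing about the rows as a class. Of the 11 called higher, 7 (Snord96a, Snord35b, Mir7058, Mir142b, Mir6385, Mir3535 and Mir8094) had passed the filter through both libraries labelled knockout alone, and of the 2 called lower, Mir223 had passed through both wild-type libraries alone. Their difference was fixed by the filter, so they are described by their values, with no test. Without either library labelled knockout, no row of the table passed limma's adjusted threshold (0 called, with 1385 rows at an unadjusted p under 0.05 without the first and 1346 without the second), and this holds for every row and host gene named below. With either wild-type library left out, 1 library of that group is assumed to vary like the 2 libraries labelled knockout. Calls from those fits are not read as results about these rows.

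**Figure D3:**
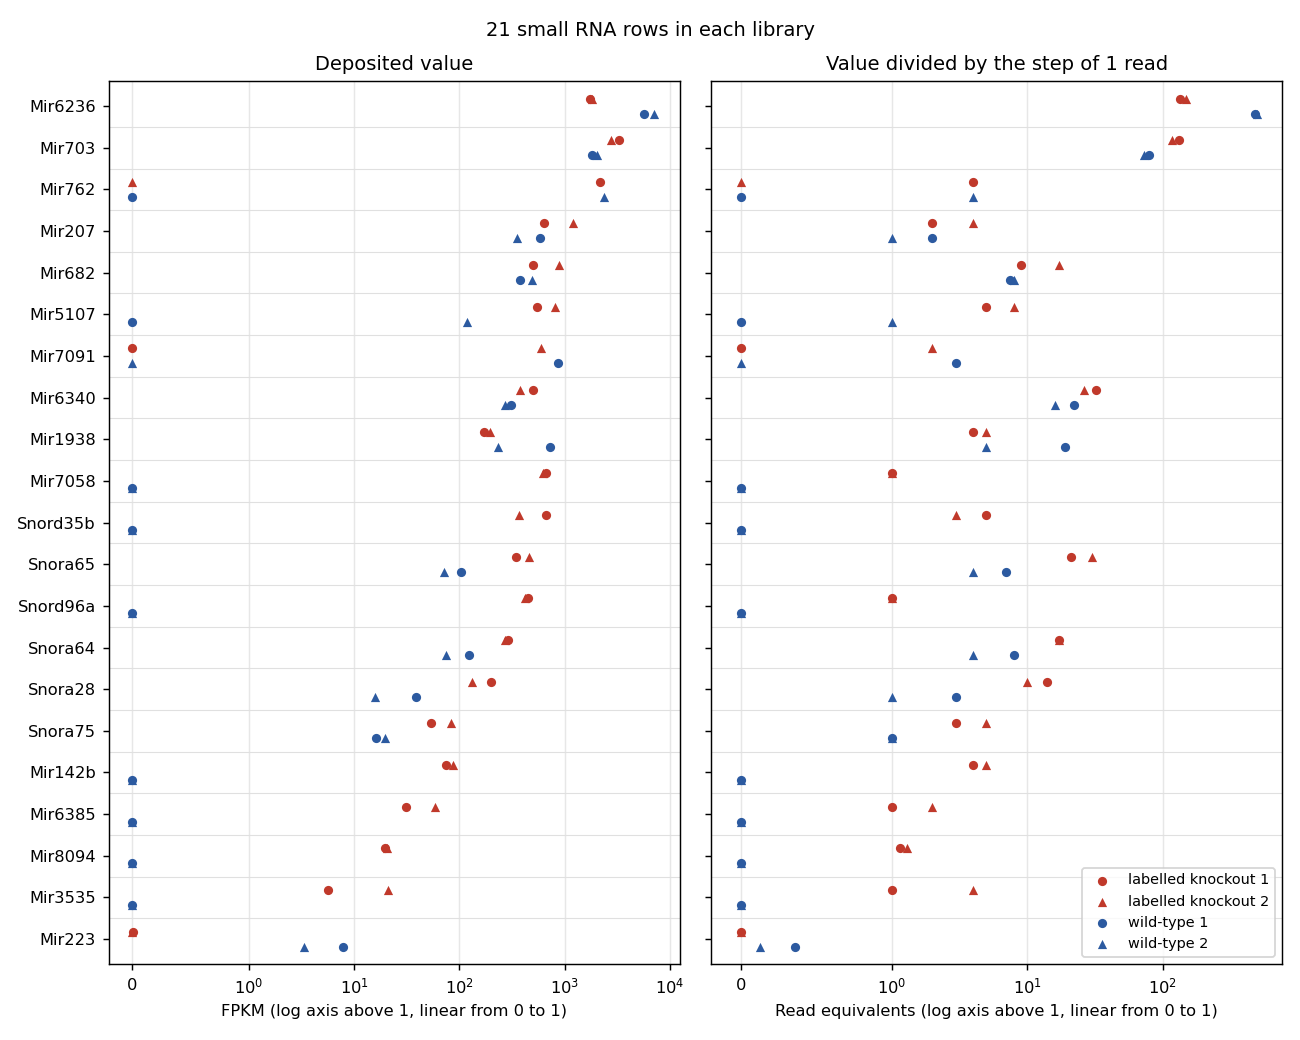
Deposited FPKM (left) and read equivalents (right) of 21 named rows in the 4 libraries, on axes that are linear up to 1 and logarithmic above; libraries labelled knockout are red and drawn above the blue wild-type libraries, and circles and triangles are replicates 1 and 2. Mir7058 and Snord96a, at 416 to 667 FPKM on the left, stand at 1 read on the right.

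Among box C/D snoRNAs, Snord96a and Snord35b had reads in both libraries labelled knockout and were at 0 in wild-type. Snord96a had 448 and 416 FPKM in libraries labelled knockout, which is 1 read in each. Snord35b had 662 and 369 FPKM in libraries labelled knockout, or 5 and 3 reads. No fold is given for either, since wild-type was at 0. The host of Snord96a, Gnb2l1, which encodes the ribosomal scaffold protein Rack1, had 272 and 268 FPKM in libraries labelled knockout and 253 and 179 FPKM in wild-type (log2 difference 0.34, limma adjusted p = 0.32). The log2 difference of Gnb2l1 was 0.60 with wild-type replicate 1 left out and 0.094 with replicate 2 left out.

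The other 7 Snord rows did not pass the test. Snord22, in the noncoding host Snhg1, held 6 and 4 reads in libraries labelled knockout and 3 and 1 in wild-type. Snord35a had 98.7 and 91.6 FPKM in libraries labelled knockout, and 89.2 FPKM and 0 in wild-type, which is 1 read in each library above 0. Snord33 and Snord16a each held 1 read in the first library of each group and 0 in the second. Snord15b ran the other way, with 1 and 0 reads in libraries labelled knockout and 2 and 3 in wild-type, while its host Rps3 was called higher. At so few reads the values of most Snord rows are set by single reads.

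Among box H/ACA snoRNAs, Snora65, Snora75, Snora64 and Snora28 rose in libraries labelled knockout, with no overlap between the groups. Snora65 had 343 and 455 FPKM in libraries labelled knockout and 103 and 71.3 FPKM in wild-type, or 21 and 30 reads against 7 and 4. Its log2 difference was 2.19 (SE 0.28; limma, adjusted p = 0.030). It was the deepest of the Snora rows. Transcripts elsewhere in the annotation match it at 95.3% to 98.5% identity, so its reads may be shared with them.

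Snora75 had 53.6 and 82.9 FPKM in libraries labelled knockout and 16.2 and 19.5 FPKM in wild-type (log2 difference 1.85, SE 0.30; limma, adjusted p = 0.037). These values are 3 and 5 reads in libraries labelled knockout and 1 and 1 in wild-type, a ratio per depth of 3.89 with an exact 95% interval of 0.777 to 37.6. That interval covers counting error only, and it includes 1. In read equivalents in place of FPKM, an alternative added after the data were seen, Snora75 lost its call (limma, adjusted p = 0.059). Transcripts of Dpep2 and Gm22972 match Snora75 at 94.7% identity, so its reads may be shared with them.

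Snora64 had 290 and 269 FPKM in libraries labelled knockout and 123 and 74.5 FPKM in wild-type, which is 17 and 17 reads against 8 and 4. Its log2 difference was 1.53 (SE 0.30; limma, adjusted p = 0.047), and it lost the call in 8 of 11 other settings that kept every library, among them read equivalents (adjusted p = 0.071). Snora28 had 201 and 133 FPKM in libraries labelled knockout and 38.9 and 15.6 FPKM in wild-type, or 14 and 10 reads against 3 and 1. Its log2 difference was 2.67 (SE 0.52; limma, adjusted p = 0.048), and it lost the call in 5 of 11 such settings, among them median centring (adjusted p = 0.055). The read ratio per depth was 5.84 for Snora28, with an exact 95% interval of 2.01 to 23.2, and 2.76 for Snora64, with an interval of 1.39 to 5.85.

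The remaining 11 Snora rows were not called. Snora70 held 9 and 16 reads in libraries labelled knockout and 1 and 4 in wild-type (log2 difference 2.46, SE 0.83; limma, adjusted p = 0.12), so the groups did not overlap but the spread was wide. Snora31 held 7 and 7 reads in libraries labelled knockout and 4 and 0 in wild-type. Snora33 held 3 and 3 reads in libraries labelled knockout and 2 and 1 in wild-type. Snora7a, Snora68, Snora41, Snora78 and Snora81 overlapped between the groups, and Snora21 and Snora3 held at most 2 reads in any library. In Snora24 a single library decided the level, with 4.44 and 61.4 FPKM in libraries labelled knockout and 0 or a value that rounds to 0 in wild-type. Snora68 and Snora41 did not come out whole, for example 3.5 and 10 read equivalents of Snora68 in libraries labelled knockout and 5.0 and 3.0 in wild-type.

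Among microRNA rows, Mir6236 fell in libraries labelled knockout and was the most deeply read of all. It had 1754 and 1811 FPKM in libraries labelled knockout and 5675 and 7067 FPKM in wild-type, which is 133 and 148 read equivalents against 476 and 491. Its log2 difference was -1.83 (SE 0.15; limma, adjusted p = 0.024), and both libraries labelled knockout lay far below both wild-type libraries. No annotated gene of the table spans it. No alignment of Mir6236 to another annotated transcript was found at 90% identity over 80% of its length. The search covered GENCODE M21 transcripts alone, so a source outside that set could not be found.

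Mir7058 had 667 and 619 FPKM in libraries labelled knockout and was listed at 0 in both wild-type libraries. The values above 0 are 1 read in each library. Its 75 nucleotides lie below the shortest row that placed the step, which was extended here from longer rows. It lies within a noncoding transcript of Lat, which encodes an adaptor of T cell receptor signalling. Lat had 164 and 182 FPKM in libraries labelled knockout and 1.73 and 3.55 FPKM in wild-type, a log2 difference of 5.62 (SE 0.32; limma, adjusted p = 0.024). The Mir7058 row rests on 2 reads in all.

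Mir142b, whose hairpin lies opposite the Mir142 host transcript, a locus known for its use in blood cells, held 4 and 5 reads in libraries labelled knockout and none in wild-type. Its level was 74.9 and 86.9 FPKM in libraries labelled knockout. Since the counting is not known to use strand, reads from the hairpin on either strand cannot be told apart. Mir6385, opposite an exon of the nuclear body gene Pml, had 31.4 and 58.2 FPKM in libraries labelled knockout and 0 in wild-type, which is 1 and 2 reads. Pml itself had 3.56 and 3.43 FPKM in libraries labelled knockout and 0.657 and 1.69 FPKM in wild-type (log2 difference 1.09, limma adjusted p = 0.092).

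Markers of lymphocytes stood high in libraries labelled knockout beside these rows. All 7 of 7 lymphocyte markers reported (Cd3d, Cd3e, Cd3g, Cd2, Cd79a, Cd79b and Ms4a1) were called higher by limma, and their summed level was 1334 to 1425 FPKM in libraries labelled knockout and 12.4 to 47.5 FPKM in wild-type, with none at 0. The 6 luminal epithelial markers summed to 689 to 707 FPKM in libraries labelled knockout and 2586 to 11549 FPKM in wild-type, and 1 of 6 was called lower by limma, with 6 of 6 lower at an unadjusted p under 0.05. The 5 macrophage markers with a row summed to 203 to 213 FPKM in libraries labelled knockout and 163 to 4419 FPKM in wild-type, and 0 of 5 were called by limma, with 0 at an unadjusted p under 0.05. Of the basal markers 1 of 4 was called lower, and of the tested endothelial and fibroblast markers 0 of 3 and 0 of 5 were called by limma, with 2 and 2 at an unadjusted p under 0.05. The part of these cells in the small RNA rows was not tested, and in bulk samples fewer cells of a type and less RNA per cell cannot be told apart.

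Further called microRNA rows held few or fractional reads. Mir3535 had 5.69 and 21.1 FPKM in libraries labelled knockout and 0 in both wild-type libraries, which is 1 and 4 reads. Mir8094, overlapping an exon of the RNA helicase gene Ddx39b, had 19.5 and 20.4 FPKM in libraries labelled knockout and values that round to 0 in wild-type. The values in libraries labelled knockout are 1.14 and 1.29 read equivalents and so are not whole reads. Ddx39b stood at 40.9 and 36.6 FPKM in libraries labelled knockout and 39.1 and 41.1 FPKM in wild-type.

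Mir223, known from myeloid cells, had 0.00896 FPKM and 0 in libraries labelled knockout and 7.80 and 3.32 FPKM in wild-type. The wild-type values are 0.361 and 0.127 read equivalents, so the row holds less than 1 read in any library. Its host row F630028O10Rik had 1.06 and 1.61 FPKM in libraries labelled knockout and 0.758 and 2.80 FPKM in wild-type (limma, adjusted p = 0.82).

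Of the microRNA rows with the highest mean FPKM, several came from very short hairpins. Mir762 had 2167 FPKM and 0 in libraries labelled knockout, and 0 and 2364 FPKM in wild-type, which is 4 reads in 1 library of each group. Mir7091 likewise held 0 and 2 reads in libraries labelled knockout and 3 and 0 in wild-type. Mir207 held 2 and 4 reads in libraries labelled knockout and 2 and 1 in wild-type, overlapping an exon of the chaperone gene Dnaja1. None of these passed the test (limma, adjusted p = 0.99 for Mir762, 0.97 for Mir7091 and 0.19 for Mir207).

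Mir5107 held 5 and 8 reads in libraries labelled knockout and 0 and 1 in wild-type, overlapping an exon of Cd74, the invariant chain of MHC class II. It was not called (limma, adjusted p = 0.17), but was called in read equivalents (adjusted p = 0.047). Its log2 difference was 2.47 with wild-type replicate 1 left out and 9.37 with replicate 2 left out. Cd74 had 4900 and 4057 FPKM in libraries labelled knockout and 431 and 10256 FPKM in wild-type. The wild-type libraries thus lay on either side, and the log2 difference of Cd74 was -1.20 without the first and 3.37 without the second.

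Mir1938, in an intron of Ifrd1, held 4 and 5 reads in libraries labelled knockout and 19 and 5 in wild-type, so that the first wild-type library alone set its level. Its log2 difference was -1.16 (SE 0.61; limma, adjusted p = 0.24). That difference was -0.34 with wild-type replicate 1 left out and -1.99 with replicate 2 left out. Mir6340, opposite an exon of Rab22a, had 500.0 and 377 FPKM in libraries labelled knockout and 311 and 273 FPKM in wild-type (log2 difference 0.57, SE 0.21; limma, adjusted p = 0.13). Its 32 and 26 reads in libraries labelled knockout lay above the 22 and 16 in wild-type. With wild-type replicate 1 left out its log2 difference was 0.67, and with replicate 2 left out 0.48.

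Some rows share nearly all their letters with an abundant messenger RNA. Mir703 had 3297 and 2736 FPKM in libraries labelled knockout and 1800 and 2008 FPKM in wild-type, without overlap (log2 difference 0.66, SE 0.15; limma, adjusted p = 0.063). It was called under quantile normalization (limma, adjusted p = 0.041). With wild-type replicate 1 left out Mir703 had a log2 difference of 0.58, and with replicate 2 left out 0.74. Its hairpin matches the translation elongation factor messenger RNA Eef1a1 at 98.2% identity, and Eef1a1 was called higher, with 1475 and 1368 FPKM in libraries labelled knockout and 867 and 764 FPKM in wild-type (log2 difference 0.80, limma adjusted p = 0.040). Mir682 had 503 and 890 FPKM in libraries labelled knockout and 379 and 488 FPKM in wild-type (limma, adjusted p = 0.25). Rpl37a, the ribosomal protein messenger RNA that it matches at 99.0% identity, had 1376 and 1464 FPKM in libraries labelled knockout and 720 and 992 FPKM in wild-type (limma, adjusted p = 0.080). The hairpin of Mir682 (RefSeq, GRCm38.p6) is shown with the single base that differs from the Rpl37a messenger RNA in capitals, to show how few letters separate the rows.
Mir682: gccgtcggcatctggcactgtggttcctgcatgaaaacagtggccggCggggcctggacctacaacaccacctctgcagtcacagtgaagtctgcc

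Of 58 rows with a sequence, 16 match another annotated transcript at 90% identity or more over 80% of their length. Genes that span the row, other than small RNA genes, were left out of this count. For 7 of the 16 rows such a transcript is a named row of the table outside the rows chosen here. Small RNA genes at the same place were not left out, so both counts may include matches at the row's own locus. Among these matches is Mir24-1 for Mir3074-1, on the other strand at 100% identity. The sources used here do not say how reads were divided among such copies.

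The 2 host transcript rows, which are long enough to be read at many places, did not pass the test. Mir22hg had 6.32 and 5.29 FPKM in libraries labelled knockout and 6.68 and 12.2 FPKM in wild-type (limma, adjusted p = 0.30). Mir17hg, the host of the Mir17 to Mir92a cluster, had 2.64 and 2.45 FPKM in libraries labelled knockout and 1.10 and 0.107 FPKM in wild-type (limma, adjusted p = 0.098).

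A host gene on the same strand had a row of its own for 46 of the 62 rows. Of these 46, 24 overlap an exon of a noncoding transcript of the host, 10 an exon of a protein-coding transcript and 12 lie in an intron of every transcript. A noncoding transcript here is any transcript of the host not annotated as protein-coding. These 24 rows overlap no exon of a protein-coding transcript of the host, and can lie in its introns. A read from a host exon that overlaps a small RNA row can also fall within that row. Of the 16 rows without a host row, 2 are the host transcripts themselves and 9 lie opposite a gene on the other strand.

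Of 42 host genes tested, 13 were called higher and 0 lower by limma, with 19 higher and 0 lower at an unadjusted p under 0.05, against the 9.51% called higher over the whole table. Their median log2 difference was 0.69, against 0.08 over all rows. With a filter at 5 FPKM, 13 hosts and 1013 of 7104 rows of the table were called higher, with a median log2 difference of 0.19 over those rows. The hosts follow from the rows chosen, and Lat entered through Mir7058, which had passed the filter through libraries labelled knockout alone. The 12 tested hosts that encode ribosomal proteins included 7 called higher, among them Rpl12, Rpl27a, Rpl32, Rpl13a, Rpl4 and Rps3. The 30 other hosts included 6 called higher: Ncl and Eif5, which encode nucleolin and a translation initiation factor, and Eif4a2, Cdk17, Rnf19a and Lat. By class, 7 of 15 hosts of Snora rows, 3 of 7 hosts of Snord rows and 4 of 21 hosts of microRNA rows were called higher, with Ncl counted under both Snora and microRNA rows.

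A small RNA row and its host were both tested in 44 pairs, and their differences had the same sign in 32. Signs were mostly positive in both sets, in 35 of 42 tested hosts and in 41 of the 62 rows chosen here. The 32 was not compared with a share expected for unlinked rows. Both were called higher in 5 pairs, and 10 pairs had a called host with an uncalled small RNA row. In 5 pairs the small RNA row alone was called. Among these rows only Snora64 had passed the filter through libraries of both groups, and the differences of the others were fixed by the filter. The pairs with both called were Snora65 with Rpl12, Snora75 and Mir3535 with Ncl, Snora28 with Eif5, and Mir7058 with Lat, of which Mir3535 and Mir7058 had passed the filter through libraries labelled knockout alone.

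Rpl12 had 653 and 632 FPKM in libraries labelled knockout and 297 and 318 FPKM in wild-type (log2 difference 1.06, limma adjusted p = 0.029). Its difference was smaller than the 2.19 of Snora65 on the same scale. Ncl had 54.5 and 52.9 FPKM in libraries labelled knockout and 28.4 and 28.9 FPKM in wild-type (log2 difference 0.88, limma adjusted p = 0.047). Eif5 had 152 and 150 FPKM in libraries labelled knockout and 80.4 and 61.5 FPKM in wild-type (log2 difference 1.09, limma adjusted p = 0.044). Ncl and Eif5 lost their call under median centring (adjusted p = 0.061 and 0.059). Rps2, the host of Snora64, was not called (limma, adjusted p = 0.18). It had 318 and 322 FPKM in libraries labelled knockout and 271 and 222 FPKM in wild-type. Its log2 difference was 0.53 with wild-type replicate 1 left out and 0.24 with replicate 2 left out. The differences between a row and its host were not tested.

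**Figure D4:**
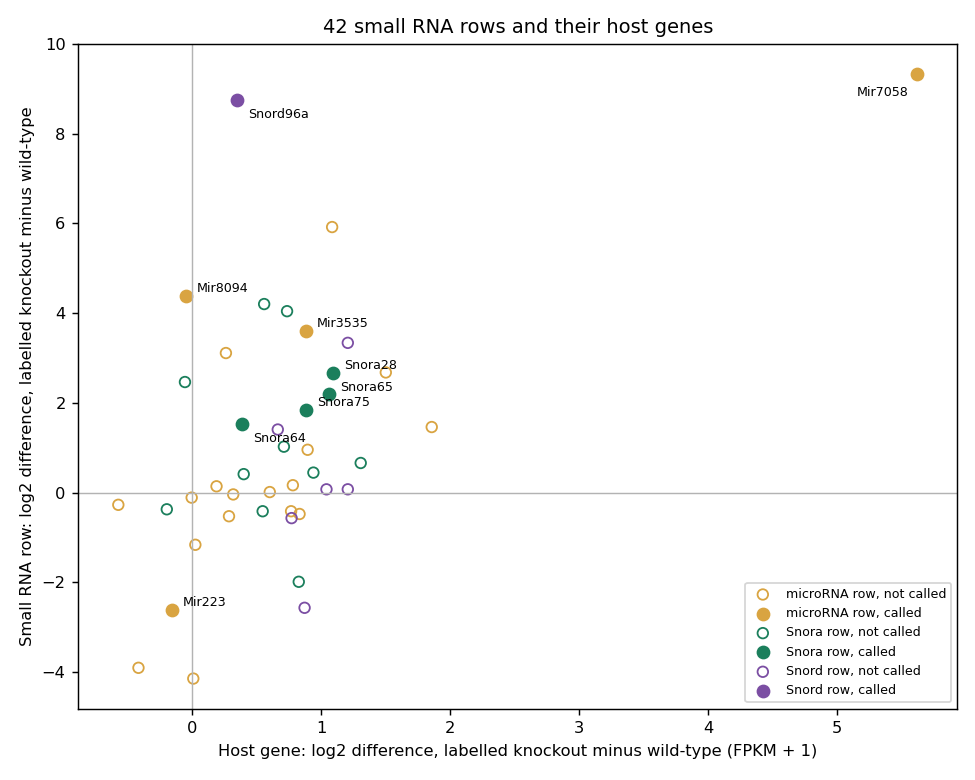
Log2 difference of the small RNA row (vertical) against that of its host gene (horizontal), libraries labelled knockout minus wild-type on the FPKM + 1 scale, for 42 of the 44 pairs; filled points are small RNA rows called by limma. Most hosts lie between -0.6 and 2, with Lat apart at 5.62, and the small RNA rows spread far more widely than their hosts.

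The genes that build and use these RNAs were read by the same test. Of 23 tested proteins of snoRNA particles and their assembly, 3 were called higher and 0 lower by limma, with 6 higher and 1 lower at an unadjusted p under 0.05, and the median log2 difference was 0.25. Of all rows tested, 9.51% were called higher and 6.99% lower, which is also the background of the counts that follow. Nop56, a core protein of box C/D particles, had 170 and 171 FPKM in libraries labelled knockout and 55.7 and 42.1 FPKM in wild-type, a log2 difference of 1.80 (SE 0.21; limma, adjusted p = 0.028). Dkc1, the pseudouridine synthase of box H/ACA particles, had 21.3 and 19.1 FPKM in libraries labelled knockout and 7.78 and 9.54 FPKM in wild-type (log2 difference 1.14, limma adjusted p = 0.046). Rrp9, a protein of the U3 snoRNA particle, had 41.4 and 40.3 FPKM in libraries labelled knockout and 20.4 and 16.9 FPKM in wild-type (log2 difference 1.10, limma adjusted p = 0.042).

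Of 22 tested genes of microRNA processing and action, 1 was called higher and 0 lower by limma, with 8 higher and 1 lower at an unadjusted p under 0.05, and the median log2 difference was 0.59. The count called higher was 2 to 4 in 6 of the other settings that kept every library. The called gene was Zcchc11, a terminal uridylyltransferase that acts on microRNA precursors, with 13.5 and 12.6 FPKM in libraries labelled knockout and 0.768 and 2.08 FPKM in wild-type (log2 difference 2.59, SE 0.35; limma, adjusted p = 0.032). Of 11 tested long noncoding hosts of snoRNAs, Snhg12, Snhg5 and Gas5 were called higher and Snhg3 lower. Gas5 had 43.9 and 48.2 FPKM in libraries labelled knockout and 24.0 and 23.0 FPKM in wild-type, and Snhg3 had 11.5 and 10.5 FPKM in libraries labelled knockout and 34.9 and 44.2 FPKM in wild-type.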

How the data were processed

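RNA of 4 libraries was sequenced from sorted cells with a low-input mRNA kit, per the labels' protocols. The deposited table gives 1 FPKM value per gene and library, made by the authors; its header names no unit, which was read from the values. The submitters' processing notes name the build mm9, and the sources used here do not give the aligner, quantification tool, strand setting or annotation. Read totals are unknown, and depth was recovered only relative to the second library labelled knockout (0.928 for the first, 1.03 and 0.850 for wild-type) from ratios of rows below 0.1 FPKM.

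Rows at 1 FPKM or more in at least 2 libraries (11138, after 92 spike-in rows were left out) were fitted on the log2(FPKM + 1) scale by limma 3.58.1 (R 4.3.3). The model held genotype alone, its prior was robust and trended, and p-values were adjusted over all rows by Benjamini-Hochberg, with a threshold of 0.05. Log2 differences are on that scale, libraries labelled knockout minus wild-type, and understate changes of low rows. Permuting 2 libraries against 2 allows 3 splits, which cannot give 0.05. Steps of 1 read by row length were interpolated (scipy 1.17.1) between rows of 77 and 198 nucleotides and checked on simulated data. Shorter and longer rows (Mir7058, Mir762 and Snord17) took steps extended in a straight line on log axes. The fit was checked on simulated libraries that all had the spread of the libraries labelled knockout. Its behaviour under unequal spread between the groups was thus not checked. Host genes were taken by span and strand from GENCODE M21 (GRCm38) and lengths from RefSeq (GRCm38.p6), by name only, since the files use mm9. Copies were sought among GENCODE M21 transcripts with blastn 2.17.0.

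Named rows are those past the threshold, those at 0 in both libraries of 1 group and the 10 with the highest mean FPKM; other rows are named only as examples of counts, chosen after their values were seen. The rows, the lists and the tests were chosen with earlier results of these data known. Alternatives were other pseudocounts, filters, scalings and priors, each library left out, the replicate number as a block, and read equivalents. A few genes of the lists and hosts are not reported here.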

Additional observations from a re-analysis of the deposited data

How the results depend on the processing

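Without a filter on low values 23951 rows were tested and 1 was called higher and 0 lower by limma (4462 at an unadjusted p under 0.05), with 0 small RNA rows in either direction, 0 hosts, 0 snoRNA particle genes and 0 microRNA processing genes called. The 2 small RNA rows called lower became 1 with a pseudocount of 10, with a filter at 5 FPKM and in read equivalents, which kept 9 of the 13 calls. The 3 called snoRNA particle genes became 1 under median centring, and the 13 called hosts became 8 with a prior neither trended nor robust. The 1 called microRNA processing gene became 2 with a pseudocount of 10 and with a common total, 3 with a common total without the small RNA rows, with the plain prior and in read equivalents, and 4 with a filter at 5 FPKM. The cause was not tested.

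Leaving out each library in turn gave 0 to 21 small RNA rows higher and 0 to 4 lower, 0 to 4269 and 0 to 3643 rows of the whole table, 0 to 28 hosts higher and 0 to 4 lower, 0 to 11 and 0 to 2 snoRNA particle genes, and 0 to 15 and 0 to 3 microRNA processing genes; the lowest values came without a library labelled knockout, where 1 library of that group is assumed to vary like the wild-type pair.

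Over 11138 rows, the difference between replicates 1 and 2 in wild-type had a correlation of -0.06 with that in libraries labelled knockout. Same-numbered libraries thus did not deviate together, and the numbers are not taken as pairs. With the replicate number as a block, limma called 346 rows of the whole table higher and 155 lower, 1 host, 1 snoRNA particle gene and 0 microRNA processing genes, and 11 of the 13 small RNA calls were kept; Snora64 and Snora75 were lost (adjusted p = 0.055 and 0.051).

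Differences that turned sign were near 0 or rested on 1 library. Ifrd1 was at -0.071 under median centring, and Mir762 and Ddx39b at 0.019 and 0.030 with a common total and at 0.023 and 0.036 with a common total without the small RNA rows. Over the fits that left out 1 library each, the range was -0.075 to 0.12 for Ifrd1, -5.67 to 5.54 for Mir762, -0.13 to 0.028 for Ddx39b, -5.16 to 4.61 for Mir7091, -1.20 to 3.37 for Cd74, -1.54 to 0.39 for Dnase1l1 and -0.71 to 0.40 for F630028O10Rik. Depth limits rows at 1 to 3 reads, where single reads set the values.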

Other observations

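Rn45s, the row of the ribosomal RNA precursor, had 117 and 131 FPKM in libraries labelled knockout and 209 and 228 FPKM in wild-type (log2 difference -0.81, SE 0.16; limma, adjusted p = 0.047). It was chosen after its values were seen.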
